A study of Mus musculus with 6 samples.

Results

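The genes described here encode the apolipoproteins that hepatocytes load onto very-low-density lipoprotein (VLDL) and high-density lipoprotein (HDL), and the microsomal triglyceride transfer protein that builds VLDL. They are Apob, Mttp, Apoa1, Apoa2, Apoa4, Apoa5, Apoc1, Apoc2, Apoc3 and Apoe, and were taken by symbol as 10 of the 45777 genes in the deposited table. Each symbol matched 1 row. Their read counts were compared between the livers of 3 littermate control mice (LT, Fpn flox/flox) and 3 mice of the genotype Alb-Cre; Fpn flox/flox (Fpn-LKO). All 6 mice were males with the strain label C57BL/6 and received the high-fat diet (HFD), and all carry the floxed Slc40a1 allele, the gene of the iron exporter ferroportin (FPN). The labels give no age. In Fpn-LKO mice, Cre is driven by the albumin promoter, which is active in hepatocytes, whereas the RNA came from whole liver with all of its cell types. The study addressed how loss of hepatic FPN alters the liver transcriptome under HFD feeding, and the question here is whether the transcripts of the lipoprotein machinery differed between the genotypes.

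The liver exports triglyceride as VLDL. Each particle is assembled around a single molecule of apolipoprotein B, which is lipidated in the endoplasmic reticulum by the transfer protein encoded by Mttp and leaves the cell through the Golgi. Smaller, exchangeable apolipoproteins then decide the fate of the particle: APOC2 activates lipoprotein lipase, APOC3 and APOC1 slow lipolysis and uptake, APOA5 favours lipolysis, and APOE binds hepatic receptors that clear remnants. APOA1 and APOA2 are the major proteins of HDL. APOA4 is made mainly by the intestine in humans, but mouse liver makes it as well and is known to make more of it in steatosis.

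None of the 10 genes differed between the genotypes at an adjusted p of 0.05 in edgeR's quasi-likelihood test across all genes, which called 4 of 17274 genes, or 0.0232%. Transcript levels of 6 genes had a higher mean and 4 a lower mean in mice labelled Fpn-LKO, with log2 fold changes between -0.23 for Apoa1 and 0.41 for Apoa4. Apob, the structural protein of VLDL, was the only gene whose 3 values in one genotype all lay outside those of the other, which 10.6% of all genes tested showed, and its mean was 0.88-fold that of LT. Apoa4 varied most from mouse to mouse, and Apoc2, the lipase activator, had the smallest p-value.

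Before these results, the labels were checked with the targeted gene. Slc40a1 had 154, 180 and 126 CPM (read counts scaled to a common library size after TMM normalization) in LT mice, and 143, 143 and 176 CPM in mice labelled Fpn-LKO (log2 fold change 0.0073 with a standard error, SE, of 0.16 and an adjusted p = 0.995 by edgeR). Its transcript count was therefore not lower, and every direction below rests on the labels. The count covers all cell types of the liver and the whole gene, so it cannot show whether the deletion took place in hepatocytes. The study itself reported loss of FPN in hepatocytes of its Fpn-LKO mice. Total counts lay between 43086184 and 47778683 per library. Replicate 1 of each genotype stood apart from the other 4 libraries in the share of reads on 22 major urinary protein (Mup) genes. This share was 3.45% and 5.15% there and 12.1% to 14.2% elsewhere. A set of 5 abundant RNAs without a poly(A) tail (Rn7s1, Rn7s2, Rn7sk, Rpph1 and Rmrp) took 16.1% to 41.1% of the deposited TPM, a transcript level scaled to length and to the same total in every library, which moves the TPM of every other gene.

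The genes lie in 2 clusters and 3 single positions of the mouse genome (GRCm38). On chromosome 9, 4 genes span 43.3 kb: Apoa1 (gene ID 11806) from 46228630 to 46230469, Apoc3 (11814) from 46233050 to 46235636, Apoa4 (11808) from 46240844 to 46243458 and Apoa5 (66113) from 46268608 to 46271921. On chromosome 7, 3 genes span 29.7 kb: Apoc2 (11813) from 19671579 to 19677941, Apoc1 (11812) from 19689480 to 19692659 and Apoe (11816) from 19696244 to 19701310. Apob (238055) lies on chromosome 12 from 7977629 to 8016839, Mttp (17777) on chromosome 3 from 138089855 to 138143418, and Apoa2 (11807) on chromosome 1 from 171221564 to 171226379.

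Promoter windows of RefSeq (GRCm38.p6) were held for 8 of the genes, and not for Apoc1 and Apoc3. The bases that lie just outside the gene are shown for the 3 genes on which the comparison turns, namely Apob, whose groups did not overlap, Apoc2, with the smallest p-value, and Apoa4, with the largest spread. Each is written 5′ to 3′ on the strand of its gene, and capitals mark the TATA box letters TATAAA and the core letters CAAAGNNCA of the element bound by HNF4, a nuclear receptor known to drive apolipoprotein genes.
Apob, chr12:7977507-7977628, plus strand: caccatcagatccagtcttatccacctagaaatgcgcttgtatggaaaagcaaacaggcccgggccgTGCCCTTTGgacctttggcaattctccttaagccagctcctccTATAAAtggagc
Apoc2, chr7:19677942-19678061, minus strand: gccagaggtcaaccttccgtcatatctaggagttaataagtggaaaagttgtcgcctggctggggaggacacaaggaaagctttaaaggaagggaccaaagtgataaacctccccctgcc
Apoa4, chr9:46240644-46240843, plus strand: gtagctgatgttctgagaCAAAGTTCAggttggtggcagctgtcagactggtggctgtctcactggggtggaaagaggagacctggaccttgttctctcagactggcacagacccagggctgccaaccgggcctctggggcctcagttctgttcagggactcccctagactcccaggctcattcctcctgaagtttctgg

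The Apob sequence holds both sets of letters, with CAAAGNNCA read on the opposite strand as TGCCCTTTG. Their first bases lie 60 and 103 bases before the transcript start on which the window is built, a start that falls inside the outer limits of the gene. In Apoa4 the HNF4 letters begin 182 bases before the start, and the stretch of Apoc2 holds neither set. The 8 genes had 12 windows in all, and the full 250 bases upstream of each start were searched on both strands. CAAAGNNCA was found for 2 of the 8 genes (Apoa4 and Apob), in 2 of the 12 windows and in 5.49% of all 32851 windows. TATAAA was found for 4 of the 8 (Apoa2, Apoa5, Apob and Apoe), in 5 of the 12 windows and in 12.4% of all windows. The letters TGTTTAC, the core of forkhead sites, were present for Apoa2, in 1 of the 12 windows and in 3.17% of all windows. The GC box GGGCGG was present for 0 of the 8 genes and in 32.7% of all windows. The 2 motifs marked do not overlap each other in these stretches. These are matches of letters and not measured binding.

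Each of the 10 genes had between 4563 and 939942 reads in every library. Apob and Apoe ranked 4 and 5 among 17274 genes by mean CPM, Apoa1 30 and Apoa2 37, whereas Mttp ranked 240 and Apoc2 707. Read counts favour long transcripts, and levels are therefore compared between genes in TPM, which is scaled to transcript length. On that scale the order changed. Mean TPM over the 6 libraries was 10926 for Apoa2, 9665 for Apoe, 7935 for Apoc1 and 6955 for Apoa1, and the ranges of these 4 genes over the libraries overlapped. Next came Apoc3 with 2790, Apoa4 with 2025 and Apob with 1593 TPM. The range of Apoa4 (1050 to 2813 TPM) overlapped with those of the other two, whereas the lowest Apoc3 library (2064 TPM) was above the highest Apob library (1920 TPM), and no library of these 3 genes reached the lowest value of the first 4. Apoa5 (500.5 TPM), Apoc2 (304 TPM) and Mttp (147 TPM) followed, and their ranges did not overlap with each other or with those above.

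**Figure D1:**
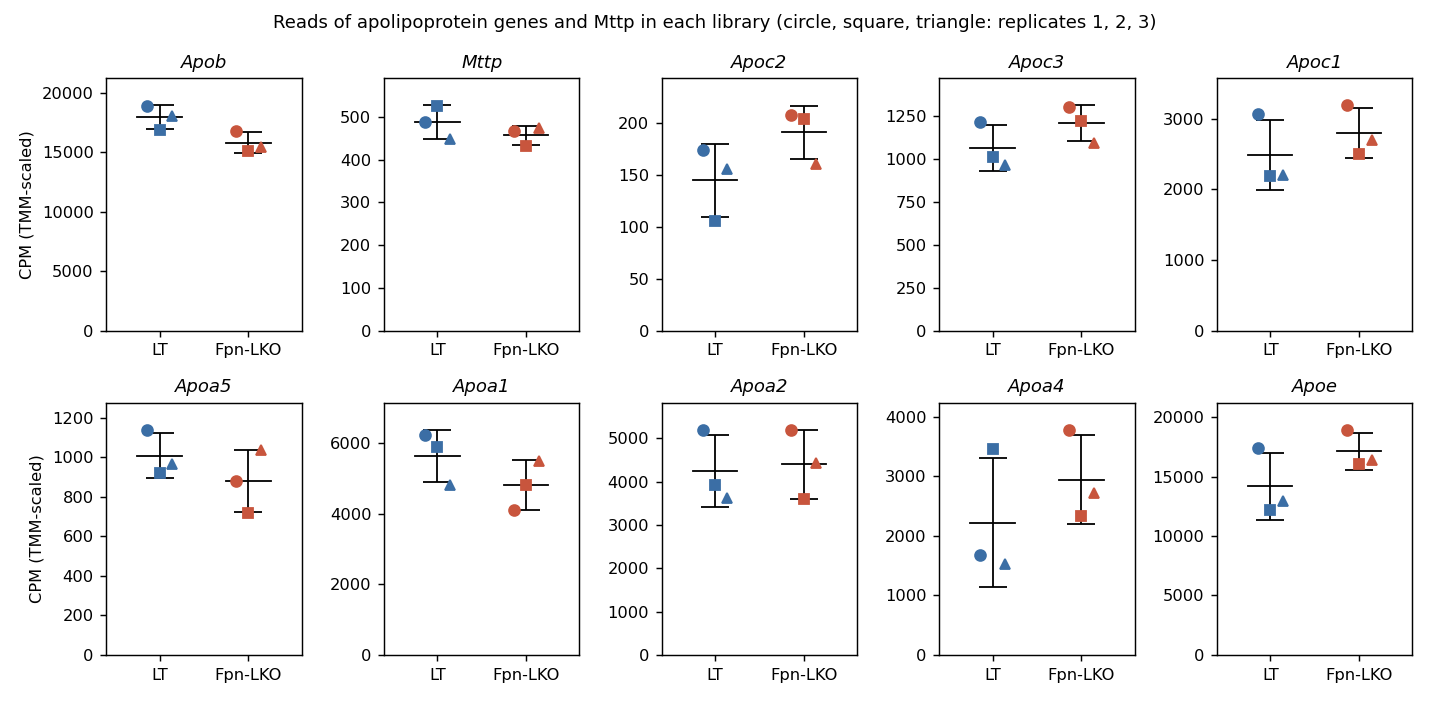
Each panel plots 1 gene, with CPM on a linear axis that starts at 0 and the 3 LT (blue) and 3 Fpn-LKO (red) libraries as points (circle, square and triangle for replicates 1, 2 and 3), and the black lines are the mean and SD. Only in the Apob panel do the values of the genotypes not overlap, 16882 to 18880 CPM in LT against 15127 to 16789 CPM in mice labelled Fpn-LKO.

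Apob and Mttp are the 2 genes without which no VLDL is assembled. Apob had 18880, 16882 and 18028 CPM in LT mice (replicates 1 to 3, the order kept throughout) and 16789, 15127 and 15478 CPM in mice labelled Fpn-LKO. Every LT value was above every Fpn-LKO value, although the highest Fpn-LKO value (16789) came close to the lowest LT value (16882). Apob averaged 17930 ± 1003 CPM in LT and 15798 ± 876 CPM in Fpn-LKO (SD, n = 3 per genotype), which gave a log2 fold change of -0.18 (SE 0.23, 95% interval -0.72 to 0.36). This did not pass the test across all genes (p = 0.454, adjusted p = 0.995 from edgeR), and the exact two-sided permutation test gave p = 0.1, the smallest value that 3 against 3 mice allow. Among all genes tested, 10.6% had no overlap between the genotypes and 5.34% had none with lower values in Fpn-LKO, so that 1 gene of 10 without overlap is close to the background. In TPM the Apob values of the genotypes did overlap, with 1495 to 1920 in LT and 1477 to 1635 in Fpn-LKO.

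Mttp lay at 489, 526 and 448 CPM in LT mice and at 466, 432 and 473 CPM in mice labelled Fpn-LKO. The values were interleaved, and the spread over all 6 libraries was the narrowest of the 10 genes (SD of log2 CPM 0.10). Group means of 488 ± 39.1 and 457 ± 21.8 CPM gave a log2 fold change of -0.09 (SE 0.13, 95% interval -0.39 to 0.20, adjusted p = 0.995 from edgeR), the shortest interval of the 10 genes. It was -0.03 and -0.15 without LT replicates 2 and 3 and -0.06 without Fpn-LKO replicate 2. The sign turned on the TPM scale, where the log2 fold change was 0.0077 by limma on log2(TPM + 1). Each of the 10 genes had a higher log2 fold change on that scale, with a median of 0.21 beside 0.11 in edgeR on counts.

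The exchangeable apolipoproteins that govern lipolysis did not share a direction. Apoc2, the cofactor of lipoprotein lipase, had 174, 105 and 155 CPM in LT mice and 207, 204 and 161 CPM in mice labelled Fpn-LKO. Replicate 2 of LT was the lowest of all 6, and replicate 1 of LT lay above the lowest Fpn-LKO library, so that the groups overlapped. The log2 fold change was 0.40 (SE 0.20, 95% interval -0.07 to 0.87), with p = 0.0876 before and 0.982 after adjustment in edgeR and an exact two-sided permutation p = 0.2. No other gene of the 10 had a smaller p-value, and 0 of them reached an unadjusted p of 0.05, which 4.8% of all genes tested did. Without LT replicate 1 the log2 fold change of Apoc2 was 0.55 with an unadjusted p of 0.041 in edgeR, and without LT replicate 2 it was 0.22. Part of the reads near Apoc2 may be shared with Gm44805, an annotated gene that overlaps it and matches it over 647 bases at 100% identity. Gm44805 was listed with 132 to 621 reads.

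Apoc3 and Apoc1, which slow the removal of triglyceride-rich particles, had higher means in mice labelled Fpn-LKO, as Apoc2 had, without passing the test. Apoc3 had 1214, 1011 and 960 CPM in LT mice and 1301, 1218 and 1093 CPM in mice labelled Fpn-LKO. Only LT replicate 1 lay inside the Fpn-LKO range (log2 fold change 0.18, SE 0.16, 95% interval -0.20 to 0.56, adjusted p = 0.985 from edgeR). Apoc1 had 3063, 2189 and 2201 CPM against 3187, 2506 and 2701 CPM, again with LT replicate 1 as the library that made the groups overlap. Its log2 fold change was 0.17 (SE 0.21, 95% interval -0.32 to 0.66, adjusted p = 0.995 from edgeR). Without LT replicate 1 the values were 0.29 for Apoc3 and 0.35 for Apoc1. Without LT replicate 3 they were 0.11 and 0.09, and Apoc1 was also at 0.09 without LT replicate 2 and at 0.07 without Fpn-LKO replicate 1.

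Apoa5, whose product enhances the lipolysis of triglyceride-rich lipoproteins, had the lower mean in mice labelled Fpn-LKO. LT mice had 1140, 922 and 968 CPM, and the libraries labelled Fpn-LKO had 882, 720 and 1036 CPM. Replicate 3 of Fpn-LKO exceeded 2 of the 3 LT libraries. The log2 fold change was -0.20 (SE 0.18, 95% interval -0.62 to 0.23, adjusted p = 0.987 from edgeR). It was -0.07 without Fpn-LKO replicate 2, -0.10 without LT replicate 1 and -0.33 without Fpn-LKO replicate 3.

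**Figure D2:**
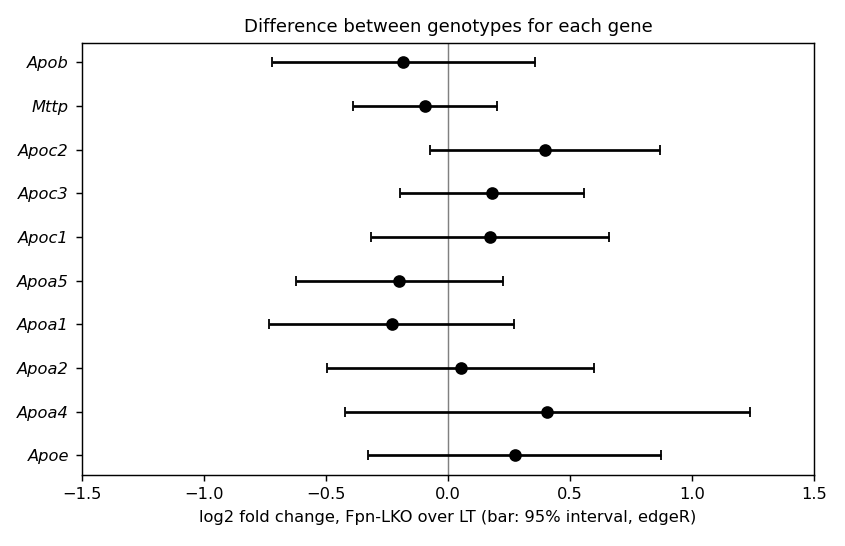
The log2 fold change of each gene (Fpn-LKO over LT, horizontal axis) is plotted as a point with its 95% interval from edgeR as a bar. Every bar crosses 0, and all bars but that of Apoa4, which reaches 1.24, stay within 1 log2 unit of 0.

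Apoa1 and Apoa2, the major proteins of HDL, differed in the sign of their log2 fold change, and neither passed the test. Apoa1 had 6230, 5889 and 4809 CPM in LT mice and 4096, 4820 and 5508 CPM in mice labelled Fpn-LKO. The lowest LT library lay below 2 of the 3 Fpn-LKO libraries. Means of 5643 ± 742 and 4808 ± 706 CPM corresponded to a log2 fold change of -0.23 (SE 0.21, 95% interval -0.73 to 0.27, adjusted p = 0.988 from edgeR), the most negative of the 10 genes. It was -0.13 without Fpn-LKO replicate 1, -0.15 without LT replicate 1 and -0.05 without replicate 1 of both genotypes. Apoa2 had 5196, 3919 and 3629 CPM in LT mice and 5184, 3596 and 4428 CPM in Fpn-LKO mice. Its highest values were nearly equal and came from replicate 1 of each genotype. Its log2 fold change of 0.05 (SE 0.23, 95% interval -0.50 to 0.60, adjusted p = 0.995 from edgeR) was the nearest to 0 and turned to -0.05 without LT replicate 3 and to -0.08 without Fpn-LKO replicate 1. Apoa2 overlaps Tomm40l on the genome, a gene listed with 132 to 324 reads against at least 150138 for Apoa2 in LT libraries.

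Apoa4 was the most variable of the 10 genes. Its values were 1683, 3467 and 1523 CPM in LT mice and 3785, 2332 and 2724 CPM in mice labelled Fpn-LKO. A single LT mouse, replicate 2, reached the level of the Fpn-LKO mice, whereas the other two were below all of them. The highest library held 2.48 times the CPM of the lowest, and the SD of log2 CPM over the 6 libraries was 0.54. Means of 2224 ± 1079 and 2947 ± 752 CPM gave a log2 fold change of 0.41 (SE 0.36, 95% interval -0.42 to 1.24, adjusted p = 0.985 from edgeR), and the interval allows up to a 2.36-fold higher level. The value rested on single libraries. Without LT replicate 2 the log2 fold change was 0.88 (adjusted p = 1.00 from edgeR, with an unadjusted p of 0.0162), and it was 0.24, 0.19 and 0.18 without LT replicate 1, LT replicate 3 and Fpn-LKO replicate 1, respectively. With replicate 1 of both genotypes left out, it was 0.02. The transcript models Gm10680 and Gm47528 match Apoa4 at 100% identity over 523 and 508 bases and are not listed in the table. The same held for Gm47544, which matches Apoa5 over 348 bases, and Gm43691, which matches Mttp over 135 bases.

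The 5 other genes whose profile over the 6 libraries was most like that of Apoa4, among 6879 genes with a mean of at least 10 CPM, were Alad, Insig2, Wdr59, Bach2 and Gm12701. Likeness was measured as the root-mean-square difference of log2 CPM after each gene was centred on its mean, which was 0.21, 0.22, 0.23, 0.25 and 0.25. Alad encodes the enzyme of heme synthesis that forms porphobilinogen. Its values were 86.4, 168 and 97.6 CPM in LT mice and 173, 127 and 110 CPM in mice labelled Fpn-LKO. Insig2 encodes an endoplasmic reticulum protein that retains the sterol sensor of the SREBP pathway, and had 230, 332 and 130 CPM in LT mice and 385, 231 and 318 CPM in Fpn-LKO mice. As for Apoa4, LT replicate 2 was the highest LT library and Fpn-LKO replicate 1 the highest of all in both. The ranking describes 6 libraries and carries no test.

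**Figure D3:**
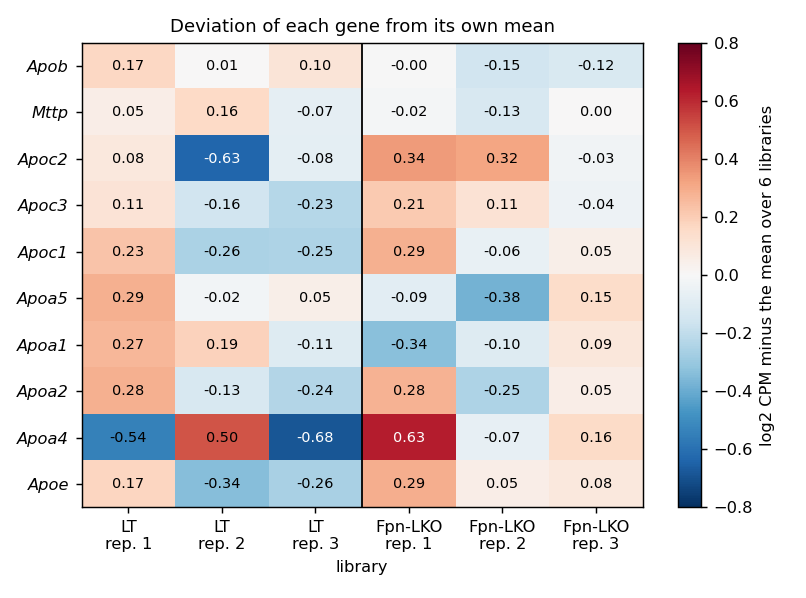
Rows are genes and columns are the 6 libraries, and each cell gives log2 CPM minus the mean of that gene over the libraries, in colour from -0.8 (blue) to 0.8 (red) and in figures. Apoa4 ranges from -0.68 to 0.63, while Apob stays within 0.17 of its mean, and replicate 1 of both genotypes is mostly red.

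Apoe mediates the uptake of remnants by hepatocytes and is also made by liver macrophages. By read counts it had 17404, 12207 and 12930 CPM in LT mice and 18934, 16049 and 16388 CPM in mice labelled Fpn-LKO. LT replicate 1 exceeded 2 of the 3 Fpn-LKO libraries, and the other LT libraries were below all of them. Means of 14180 ± 2815 and 17124 ± 1577 CPM gave a log2 fold change of 0.27 (SE 0.26, 95% interval -0.33 to 0.87, adjusted p = 0.991 from edgeR, exact two-sided permutation p = 0.3). Without LT replicate 1 it was 0.45, and without LT replicate 2 it was 0.18.

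The deposited units disagreed for Apoe. Its FPKM values (fragments scaled to transcript length and depth) were 5096, 8235 and 3552 in LT mice and 5552, 4630 and 10799 in mice labelled Fpn-LKO, so that LT replicate 2 was the lowest LT library by counts and the highest by FPKM. TPM followed FPKM, with 8183, 11933 and 5001 in LT and 7852, 8039 and 16981 in Fpn-LKO. In LT replicate 2 and Fpn-LKO replicate 3, the reads per unit of FPKM were lower than in the other libraries, by 1.22 on the log2 scale in each. This ratio, which should be the same in every library for a gene of 1 length, ranged 2.35-fold for Apoe and at most 1.03-fold for the other 9 genes. Among 3738 genes that reached 1000 reads in all 6 libraries, 3 (0.0803%) had a range as wide as that of Apoe, and the median range was 1.01-fold. RefSeq lists 5 transcripts for Apoe. Whether the transcript length assigned to Apoe differed between libraries was not tested, and its level in TPM is uncertain for that reason. Counts were used for its comparison.

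**Figure D4:**
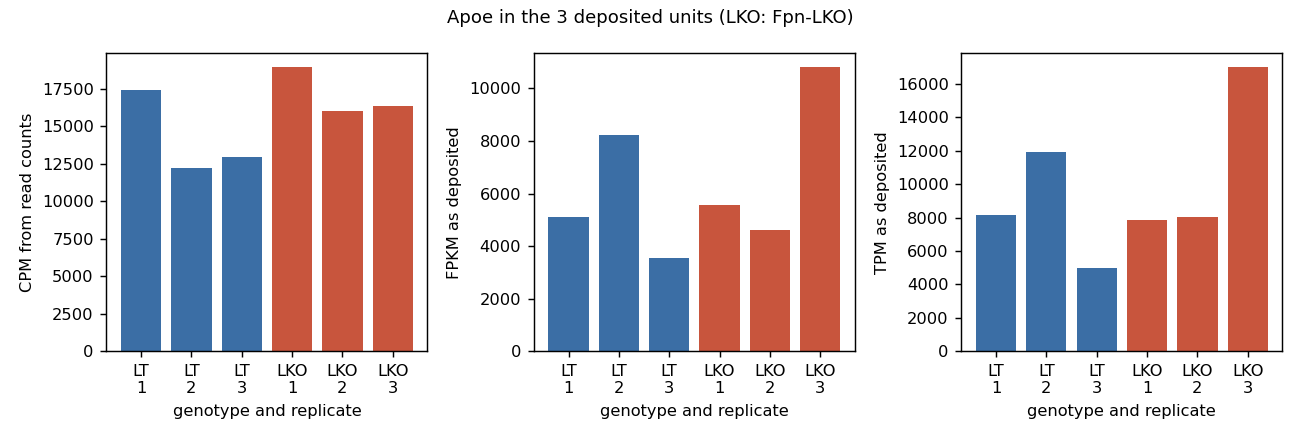
Bars give Apoe in each library (blue LT, red Fpn-LKO, replicates 1 to 3) as CPM from read counts, as deposited FPKM and as deposited TPM, each axis starting at 0. LT replicate 2 and Fpn-LKO replicate 3 hold 8235 and 10799 FPKM and stand above the other 4 libraries in FPKM and TPM, but not in CPM.

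Together, the 10 genes took 4.96 ± 0.75% of all reads in LT mice and 5.06 ± 0.46% in mice labelled Fpn-LKO (SD, n = 3 each). Their summed level was 49414 ± 5297 and 50609 ± 3951 CPM (exact two-sided permutation p = 0.8), and in TPM 40289 ± 9582 and 45390 ± 4977 (exact two-sided permutation p = 0.4). With the RNAs without a poly(A) tail taken out of the TPM total, the sums were 60658 ± 13935 and 62324 ± 10969 TPM (exact two-sided permutation p = 0.8). Both TPM sums include Apoe, whose TPM is uncertain, and were not computed without it. The median log2 fold change of the 10 genes was 0.11, beside -0.0040 over all genes tested. DESeq2 and edgeR's exactTest called 0 of the 10 genes as well. For 9 of the 10 genes the 95% interval of the log2 fold change lay between -1 and 1, and the outer limits were 0.60-fold for Apoa1 and 2.36-fold for Apoa4.

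Several genes shared their highest library. For 6 of the 10 (Apob, Apoc1, Apoc2, Apoc3, Apoa2 and Apoe), replicate 1 was the highest library in LT and also in Fpn-LKO, which held for 12.2% of all genes tested. These are the 2 libraries with the low share of Mup reads, and the part of this difference between libraries in the results was not tested. The summed share of reads was 5.79% and 5.59% in these 2 libraries and 4.35% to 4.86% in the other 4. With both left out, Apob, Apoc1, Apoc2, Apoc3 and Apoe did not overlap between the genotypes, but with 2 libraries per group 34% of all genes did not overlap either, and 0 of the 10 genes reached an unadjusted p of 0.05 in edgeR. In bulk liver, a smaller number of cells of a type and less RNA per cell cannot be told apart.

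Ratios between 2 of these genes within a library do not depend on its scaling, and these were chosen after the values were seen. Of 45 pairs, 9 did not overlap between the genotypes. Pairs of other genes were not examined, so whether 9 of 45 is unusual cannot be told. The log2 ratio of Apob to Apoe reads was 0.12, 0.47 and 0.48 in LT mice and -0.17, -0.09 and -0.08 in mice labelled Fpn-LKO, a difference of -0.47. Apob reads thus exceeded Apoe reads in every LT library and were fewer in every Fpn-LKO library. The ratios of Apob to Apoc2, Apoc3 and Apoc1 also did not overlap, with differences of -0.60, -0.37 and -0.37 on the log2 scale. Apoe entered 5 of the 9 pairs, the other 4 being with Apoa1 (difference of the log2 ratio to Apoe -0.52), Apoa5 (-0.50), Apoa2 (-0.23) and Apoc1 (-0.10). Apoc1 to Apoa2 was the last pair (0.13). Each of the 9 pairs had an exact two-sided permutation p of 0.1, which is 0.5 after Benjamini-Hochberg adjustment over the 45 pairs, so that none passed a threshold. The pairs share genes and libraries and are not independent.

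Genes that act with these apolipoproteins or flank their clusters were read from 6 lists, of which 99 genes are reported here and 98 were tested. In edgeR's quasi-likelihood test 0 of these were called, 5 (5.10%) had an unadjusted p under 0.05 beside 4.8% of all genes, and 9 (9.18%) did not overlap between the genotypes beside 10.6% of all genes. The 10 further apolipoprotein genes, such as Apoh and Clu, had a median log2 fold change of -0.01 over the 9 tested, with 0 at an unadjusted p under 0.05. That median is the value of Saa2, whose SE was 1.63. Saa1 and Saa2 varied widely between the libraries, from 27.0 to 1189 and from 8.06 to 754 CPM. Apoh, the most abundant, had 2294 ± 208 and 2046 ± 242 CPM (SD, n = 3 each; log2 fold change -0.17, SE 0.17, adjusted p = 0.991 from edgeR).

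VLDL lipidation and export was covered by 28 genes, including the carboxylesterases, the COPII coat that buds vesicles from the endoplasmic reticulum, and the cargo receptor Surf4. Their median log2 fold change was 0.03, and Vmp1 alone had an unadjusted p under 0.05. Vmp1 encodes an endoplasmic reticulum scramblase needed for lipoprotein release and autophagy. It had 76.6, 80.5 and 89.9 CPM in LT mice and 141, 92.4 and 106 CPM in mice labelled Fpn-LKO, with no overlap (log2 fold change 0.46, SE 0.17, p = 0.028 and adjusted p = 0.982 from edgeR, exact two-sided permutation p = 0.1). Besides Vmp1, Pla2g12b did not overlap upward, and Mia2 and Arfrp1 did not overlap downward (log2 fold changes 0.21, -0.14 and -0.11). Ces3a, the most abundant of the list, had 2333 ± 460 and 2382 ± 192 CPM. The 5 genes of Apob mRNA editing, which in mouse liver yields the short form APOB48, had a median log2 fold change of 0.08. A1cf, the most abundant of them, had 198 ± 41.4 and 209 ± 49.3 CPM, and Rbm47 was the only one without overlap (35.6 ± 2.71 and 45.3 ± 9.06 CPM, adjusted p = 0.982 from edgeR).

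Lipolysis and uptake of lipoproteins was covered by 18 genes with a median log2 fold change of -0.0014. Scarb1, the HDL receptor, had 55.6, 64.6 and 55.8 CPM in LT mice and 48.8, 50.4 and 38.2 CPM in Fpn-LKO mice, without overlap (log2 fold change -0.36, SE 0.14, p = 0.0341 and adjusted p = 0.982 from edgeR, exact two-sided permutation p = 0.1). Lrp1, a remnant receptor and the most abundant of the list, overlapped (622 ± 97.7 and 701 ± 168 CPM).

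Transcription factors that act on apolipoprotein genes made up a list of 25, with a median log2 fold change of -0.0044 and 3 genes at an unadjusted p under 0.05. Hnf4a had 239, 250 and 265 CPM in LT mice and 310, 344 and 286 CPM in mice labelled Fpn-LKO, with no overlap (log2 fold change 0.32, SE 0.12, p = 0.0328 in edgeR, exact two-sided permutation p = 0.1). Nr1h3, the oxysterol receptor LXRα, had 76.2, 72.7 and 69.8 CPM and 85.1, 85.9 and 86.7 CPM (log2 fold change 0.24, SE 0.09, p = 0.039 in edgeR, exact two-sided permutation p = 0.1), and Foxa1 had 4.73 ± 0.79 and 7.19 ± 2.17 CPM (log2 fold change 0.60, SE 0.25, p = 0.0468 in edgeR, exact two-sided permutation p = 0.1). After adjustment p was 0.982 for all 3. Ppara, the most abundant of the list, overlapped between the genotypes at 420 ± 86.3 and 404 ± 33.3 CPM. The 13 genes that flank the 2 clusters, such as Sik3 and Clptm1, had a median log2 fold change of 0.05 and 0 at an unadjusted p under 0.05. Clptm1 had 44.2 ± 5.87 and 40.5 ± 3.55 CPM.

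**Figure D5:**
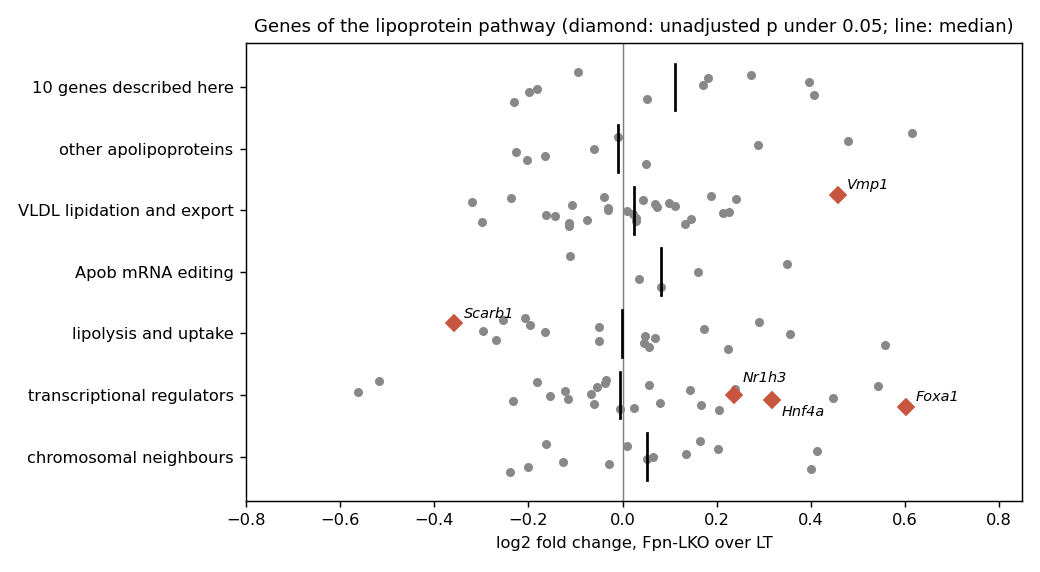
Each point is 1 gene, placed by its log2 fold change (Fpn-LKO over LT, horizontal axis) within its list (vertical axis), black lines are list medians, and red diamonds are genes with an unadjusted p under 0.05. Foxa1 at 0.60 is the diamond farthest from 0, the list medians lie between -0.01 and 0.11, and 0 of the genes shown had an adjusted p under 0.05 in edgeR's quasi-likelihood test.

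Markers of the cell types in the tissue were summed to set beside these values. Hepatocyte markers (7 of 8 found by symbol) summed to 64598 to 83840 CPM in LT and 71853 to 78323 CPM in Fpn-LKO (exact two-sided permutation p = 0.8). Intestinal epithelium, the other main source of APOB and APOA4, had sums of 86.2 to 173 and 109 to 149 CPM, and 5 of its 10 markers had no read in any library. Fabp2 alone had 84.2 to 153 CPM with TMM scaling, which the sums lack, so that 1 marker made up most of the sum. Apoe is also expressed by macrophages, whose 12 markers summed to 395 to 520 CPM in LT and 349 to 744 CPM in Fpn-LKO (exact two-sided permutation p = 0.8). Blood markers summed to 334 to 947 and 460 to 1254 CPM (exact two-sided permutation p = 0.2), markers of stellate and endothelial cells to 459 to 523 and 428 to 468 CPM, and those of cholangiocytes to 13.2 to 80.3 and 20.4 to 30.4 CPM. Adipocyte markers reached at most 2.05 CPM with 4 of 5 at no read, and pancreatic markers at most 27.2 CPM with 5 of 7 at no read. The highest cholangiocyte and pancreatic sums were mostly Spp1 and Cela1 in LT replicate 3 (83.1 and 27.0 CPM with TMM scaling). The part of other cell types in the values of Apoe was not tested.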

How the data were processed

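Each of the 6 libraries came from the liver RNA of 1 HFD-fed mouse, 3 per genotype, and they all carry 1 batch label. The authors deposited, per gene, read counts without normalization, FPKM scaled to transcript length and depth, and TPM. The submitters' processing notes name HISAT2 2.1.0, Bowtie2 2.3.4.1, StringTie 2.1.3b and the build mm10. The methods describe removal of ribosomal RNA from total RNA, whereas the labels name an mRNA kit. The kit bears on the RNAs without a poly(A) tail.

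Counts were tested with edgeR 4.0.16 in R 4.3.3 (TMM, quasi-likelihood, Benjamini-Hochberg, threshold 0.05) over the 17274 genes with at most 1 library at 0 reads. The study used exactTest. The common biological coefficient of variation was 0.275. Summed values were compared by exact permutation in scipy 1.17.1. Alternatives comprised DESeq2 1.42.0, exactTest, RLE scaling, a replicate block, filterByExpr, no filter beyond 1 read, limma 3.58.1 on log2(TPM + 1) and log2(TPM + 0.1), removal of RNAs without poly(A), and leaving out libraries. Scripts were tested on simulated counts. BLAST 2.17.0 was used to find near-identical transcripts at 90% identity over at least 100 bases.

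The 10 genes and the lists were chosen with earlier results of these data known. Genes named from the lists are those with an unadjusted p under 0.05 and the most abundant of each list. A gene of the lists is not reported here and was left out of their counts. Pla2g12b, Mia2, Arfrp1, Rbm47, Saa1, Saa2, Fabp2, Spp1, Cela1 and the gene pairs were named after their values were seen. All p-values rest on these 6 mice. The SE, intervals and p-values from edgeR also draw on a dispersion estimated over all genes. They are therefore not a measure of the spread of a single gene between the mice. For Apob the SE of the log2 fold change was 0.23, although the SD of log2 CPM over the 6 libraries was 0.12.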

Additional observations from a re-analysis of the deposited data

How the results depend on the processing

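Of 160 log2 fold changes of the 10 genes over 16 alternatives, 0 passed the adjusted threshold (lowest adjusted p 0.839) and 4 changed sign: Mttp on the TPM scale (0.0077 with a pseudocount of 1, 0.0078 with 0.1) and Apoa2 without LT replicate 3 (-0.05) or Fpn-LKO replicate 1 (range on leaving out 1 library -0.08245 to 0.22). Genes called in the whole table numbered 4, 72 with DESeq2 (49 higher), 63 with exactTest (44 higher) and 7 with limma on log2(TPM + 0.1). They numbered 0 with replicate 1 of both genotypes left out (chosen after seeing the data). On leaving out 1 library they numbered 0 (without LT replicate 2) to 6 (without Fpn-LKO replicate 3). At an unadjusted p under 0.05 there were 0 of the 10 genes, and 0 to 1 on leaving out 1 library (Apoc2 without LT replicate 1, Apoa4 without LT replicate 2). Of the 10 genes, 1 was without overlap, 0 in both TPM fits and 5 with replicate 1 of both genotypes left out. On leaving out 1 library there were 1 to 5 (Apob each time), beside 18.9% to 22.4% of all genes. The log2 ratio of the summed CPM was 0.03 and ranged from -0.027 to 0.13 on leaving out 1 library, negative without LT replicate 3 (-0.02) and without Fpn-LKO replicate 1 (-0.027). That of the summed TPM, which includes the uncertain TPM of Apoe, was 0.17. It ranged from -0.0043 to 0.33, negative without LT replicate 3 (-0.0043). The cause was not tested.

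Replicate numbers in the labels are not said to pair the mice, and whether they do cannot be told from these values. In the library names, LT and Fpn-LKO libraries of the same replicate number carry consecutive numbers, whose meaning is not given. Libraries of the genotypes with the same replicate number correlated in their deviations with r of 0.249, 0.026 and 0.129 over 12577 genes. Libraries of the genotypes with different replicate numbers had r between -0.193 and 0.0841. LT replicate 2 correlated about equally with Fpn-LKO replicates 2 (0.026) and 3 (0.0269). With the replicate block, 0 genes were called in the table and 0 of the 10. The lowest count of the 10 genes in any library was 4563, and depth was not varied.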
